A study of Rattus norvegicus with 2 samples.

Results

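Cholesterol synthesis, uptake and transport were followed through 29 genes of the pathway, chosen by name rather than by a cutoff on their values, among the 30017 gene symbols in the counts of rat dorsal root ganglia (DRGs). All 29 were found. They comprised 7 genes of the mevalonate steps, 11 genes of the squalene and sterol steps, 4 regulators, 3 genes of lysosomal export and transfer, and 4 genes of efflux and storage.

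Single cells of lumbar DRGs (L3 to L6, both sides) were counted by 10x Genomics 3′ sequencing, in which a unique molecular identifier (UMI) marks each captured molecule. Both groups were male SD rats, 8 weeks old at purchase and acclimated for 1 week. The diabetic peripheral neuropathy (DPN) group had a single intraperitoneal injection of streptozotocin (STZ) at 65 mg/kg, which destroys insulin-producing beta cells, and the control group had citrate buffer. Ganglia of 5 rats were pooled into 1 library per group, 8 weeks after injection. Each condition is a single library, so the conditions could not be tested against each other, cells were not treated as replicates, and the intervals given here cover counting error only. The model is one of insulin loss caused by a toxin, and the rats of a pool cannot be told apart.

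Cholesterol is built from acetyl-CoA through mevalonate to squalene, which is closed into lanosterol and trimmed to cholesterol. The transcription factor SREBP2 drives most of these enzymes when sterols in the endoplasmic reticulum are low: Scap escorts it to the Golgi, and Insig proteins hold it back. Cholesterol taken up with lipoproteins leaves the lysosome through Npc1 and Npc2, is exported by Abca1 and Abcg1 onto particles that carry Apoe, or is esterified by Soat1 for storage. In peripheral ganglia and nerves, glia need much cholesterol for their membranes and for myelin.

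Barcodes with at least 1000 UMIs and under 20% mitochondrial UMIs were kept, 9798 of 11011 from control and 11013 of 13168 from DPN, and 38 barcode sequences occurred in both libraries. The libraries held 121101966 and 115409375 UMIs. Cells were assigned to 5 classes by the summed share of a few marker genes. Satellite glia, the cells that wrap sensory neurons, numbered 4135 (control) and 3012 (DPN), myelinating Schwann cells 347 and 481, other glia 2856 and 3874, endothelium 802 and 1213, and macrophages 173 and 242. Median UMIs per cell were lower in the DPN library in every class, at 13783 against 11145 in satellite glia and 4959 against 4324 in macrophages.

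Markers that the gates did not use were checked in each class. Markers of endothelium summed to 2273 and 2359.5 CPM (counts per 1000000 UMIs of the class, control and DPN) in endothelium and to 13.8 and 18.5 CPM in satellite glia. Macrophage markers summed to 3285 and 2942 CPM in macrophages, and myelin genes to 41595 and 34347 CPM in myelinating Schwann cells. Satellite glial markers summed to 1252 and 1187 CPM in satellite glia and to 657 and 641 CPM in other glia. The list for other glia was no higher there (1662 and 2111 CPM) than in myelinating Schwann cells (2448 and 2644 CPM), so other glia are described by their gate, S100b without the satellite glial or myelin gate genes. Neuron markers were higher in the DPN library in all 5 classes, with 104 and 172 CPM in satellite glia and 140.0 and 425 CPM in myelinating Schwann cells and none of the markers at 0. In macrophages the endothelial gate genes summed to 7.74 and 123 CPM and the endothelial markers to 42.6 and 115 CPM, and in other glia the neutrophil markers S100a8 and S100a9 summed to 1.11 and 70.6 CPM. The part of these cell types in the results was not tested.

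Promoter sequences are shown for 4 genes, because they lay on both sides of the control level in satellite glia (Hmgcs1 and Soat1 higher in DPN, Ebp and Tm7sf2 lower) while their promoters held the same short motifs. SREBP2 is known to act together with NF-Y, which binds CCAAT boxes, and Sp1, which binds GC boxes. In the RefSeq table of assembly GRCr8, promoters of 300 bases (250 before and 50 after the start) were found for 24 of the 29 genes. The 200 bases before the start are printed 5′ to 3′ on the gene's strand, with CCAAT or its reverse complement ATTGG and GGGCGG or its reverse complement CCGCCC in capitals. These motifs did not overlap in the printed windows. The windows are chr2:53382104-53382303 on the plus strand for Hmgcs1, chr13:71147673-71147872 on the minus strand for Soat1, chrX:16971262-16971461 on the plus strand for Ebp, and chr1:212789542-212789741 on the minus strand for Tm7sf2.
Hmgcs1: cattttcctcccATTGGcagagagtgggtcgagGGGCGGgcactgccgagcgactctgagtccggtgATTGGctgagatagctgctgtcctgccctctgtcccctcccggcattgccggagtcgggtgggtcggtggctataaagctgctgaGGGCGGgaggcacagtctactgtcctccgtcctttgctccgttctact
Soat1: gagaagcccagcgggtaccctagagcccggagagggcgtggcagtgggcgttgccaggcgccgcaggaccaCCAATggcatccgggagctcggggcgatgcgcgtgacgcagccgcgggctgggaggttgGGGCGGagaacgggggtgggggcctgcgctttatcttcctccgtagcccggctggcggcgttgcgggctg
Ebp: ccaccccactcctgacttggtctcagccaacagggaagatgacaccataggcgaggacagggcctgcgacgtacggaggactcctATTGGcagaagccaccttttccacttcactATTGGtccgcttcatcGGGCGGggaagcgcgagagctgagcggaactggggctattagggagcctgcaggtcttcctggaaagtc
Tm7sf2: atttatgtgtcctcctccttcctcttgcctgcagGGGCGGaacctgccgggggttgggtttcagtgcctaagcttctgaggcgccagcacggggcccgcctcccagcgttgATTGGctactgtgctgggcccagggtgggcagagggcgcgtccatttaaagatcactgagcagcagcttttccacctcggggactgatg

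Members were counted by gene, and a gene with more than 1 promoter counted if any of them held the motif. CCAAT occurred on either strand for 18 of the 24 genes and GGGCGG for 21, and both for 15. Among the 15 synthesis genes with a promoter, 80% held CCAAT, 86.7% GGGCGG and 66.7% both. Among all 33469 promoters of the table, counted by promoter and not by gene, the shares were 37.5%, 33.1% and 11.8%. A spelled-out sterol regulatory element, TCACNCCAC or its reverse complement, was found for 0 of the 24 genes and in 1.12% of all promoters. In the printed windows, Hmgcs1 and Ebp each held 2 CCAAT boxes and Soat1 and Tm7sf2 held 1. These matches describe letters in a window and not bound sites.

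The synthesis genes were mainly expressed in satellite glia. All 18 synthesis genes, Insig1 and Apoe were highest in satellite glia in both libraries, 20 of the 29 genes in all. Together the 18 synthesis genes made up 0.866% of all UMIs of control and 0.967% of DPN satellite glia, against 0.455% and 0.573% in other glia, 0.291% and 0.264% in myelinating Schwann cells, 0.0936% and 0.0995% in endothelium, and 0.168% and 0.156% in macrophages. Insig2, Npc1, Npc2, Abca1 and Soat1 were highest in macrophages in both libraries, and Stard4 in endothelium. For Srebf2, Scap and Abcg1 the highest class differed between libraries. Cells that met a second gate counted in these shares. Without them the same 20 genes were highest in satellite glia. The synthesis genes then summed to 609 and 654 CPM in endothelium and to 535 and 942 CPM in macrophages (control and DPN). Control macrophages were thus below endothelium.

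**Figure D1:**
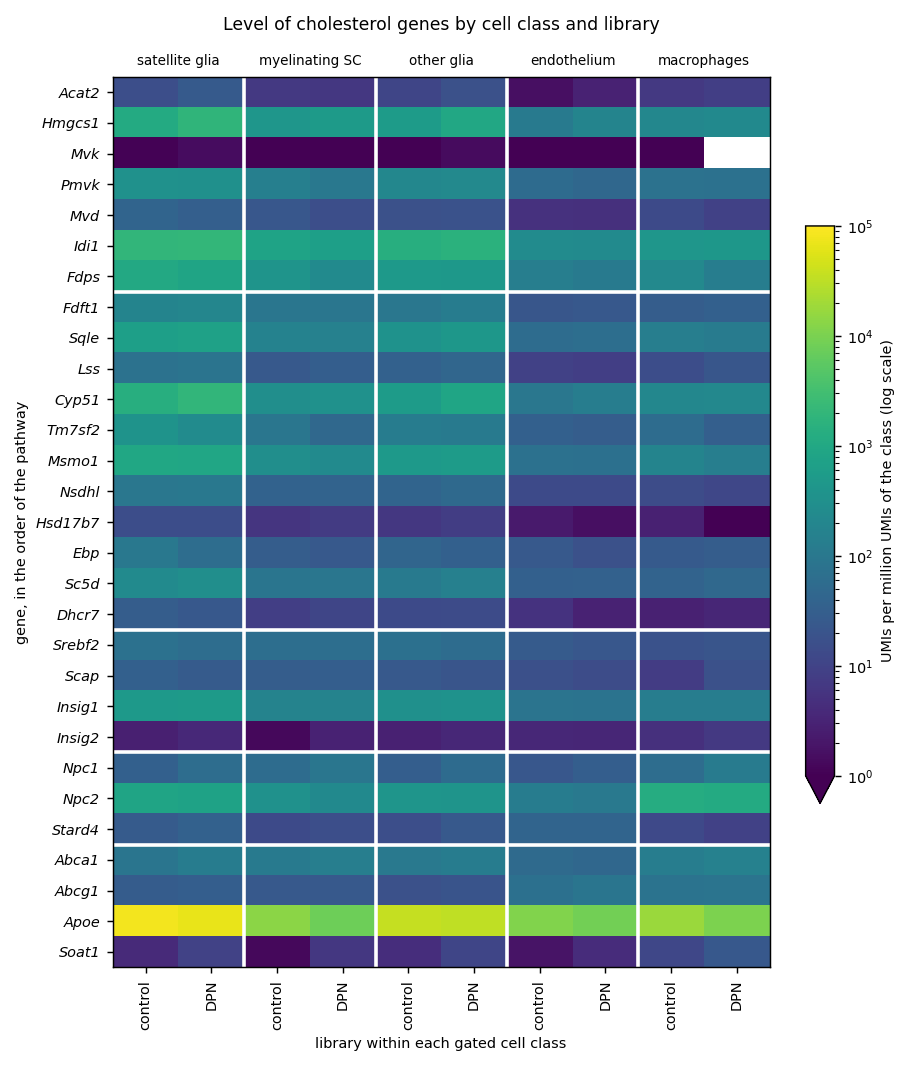
Level of each of the 29 genes (rows, in the order of the pathway) in each cell class and library (columns), as UMIs per 1000000 UMIs of the class, on a logarithmic colour scale with levels of 1 or less in the darkest colour. White marks 0 UMIs, found for Mvk in DPN macrophages, where the 95% interval reaches 3.12 CPM. The synthesis genes were brightest in satellite glia, Npc2 was brightest in macrophages, and Apoe was at or above 7905 CPM in every class.

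Not every order was clear by separate counting intervals. The 95% Poisson intervals of the highest class and the next overlapped in both libraries for Mvk, Srebf2, Scap, Insig2, Npc1, Abca1 and Abcg1. Overlap of separate intervals does not show that levels were equal, and the ratio between those neighbours was not given an interval. Npc2, the soluble lysosomal partner of Npc1, was clear of its neighbour at 1237 and 1163 CPM in macrophages against 839.7 and 753 CPM in satellite glia. Stard4, a protein that carries sterol between membranes, stood at 40.8 and 40.8 CPM in endothelium against 26.8 and 35.4 CPM in satellite glia. Abcg1 was also above its satellite glial level in endothelium, at 71.4 and 86.0 CPM against 28.8 and 30.9 CPM.

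Some UMIs of satellite glial genes were found in the other classes. Among cells that met only 1 gate, Fabp7 and Tyrp1, the genes of the satellite glial gate, stood in endothelium at 1.31% and 1.23% of their level in satellite glia (control and DPN) and in macrophages at 2.11% and 3.72%. The synthesis genes stood at 7.01% and 6.73% in endothelium and 6.16% and 9.71% in macrophages. Apoe stood at 10.1% and 9.20% in endothelium and 9.66% and 9.84% in macrophages. Fabp7 and Tyrp1 were at a lower share than the synthesis genes in both classes and in both libraries. Satellite glia were selected to be high in Fabp7 and Tyrp1, and the other cells of 1 gate to be below that gate. Their low share was thus partly set by the gating. It cannot show how many synthesis UMIs in the other classes came from satellite glia.

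The message of most of the 29 genes differed by less than 1.5-fold between DPN and control. In satellite glia all 29 had at least 50 UMIs over both libraries, and 4 were at least 1.5-fold higher in DPN and 1 at least 1.5-fold lower, where 27.9% and 2.65% of all genes with 50 UMIs were. In other glia 6 of 28 were higher and 0 lower (all genes 25.4% and 2.68%), and in endothelium 3 of 27 were higher and 1 lower (all genes 20.5% and 5.3%). In myelinating Schwann cells 1 of 23 was higher and 3 were lower (all genes 21.9% and 6.05%), and in macrophages 1 of 17 was higher and 3 were lower (all genes 23.5% and 5.42%). Without cells that met a second gate, the counts were 6 higher and 0 lower of 13 in macrophages (all genes 22.6% and 5.15%) and 1 and 1 of 23 in myelinating Schwann cells (all genes 21.8% and 6.06%). The share of all genes called depends on their abundance: among those with 1000 UMIs, 16.3% were at least 1.5-fold higher in satellite glia and 13.8% in other glia.

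The median ratio of all genes with 200 UMIs was itself above 1 in satellite glia (1.11) and other glia (1.09), and was 1.03 in endothelium, 0.991 in myelinating Schwann cells and 0.991 in macrophages. In satellite glia 18 of the 29 genes had a ratio above 1 and 11 a ratio above that median. Scaled to the median, the count past 1.5-fold in satellite glia became 2 higher and 2 lower, and in other glia 3 higher and 0 lower. The median log2 ratio of the 29 genes was 0.09 in satellite glia, against 0.21 for all genes with 50 UMIs, and that of the 28 genes in other glia was 0.24, against 0.19.

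**Figure D2:**
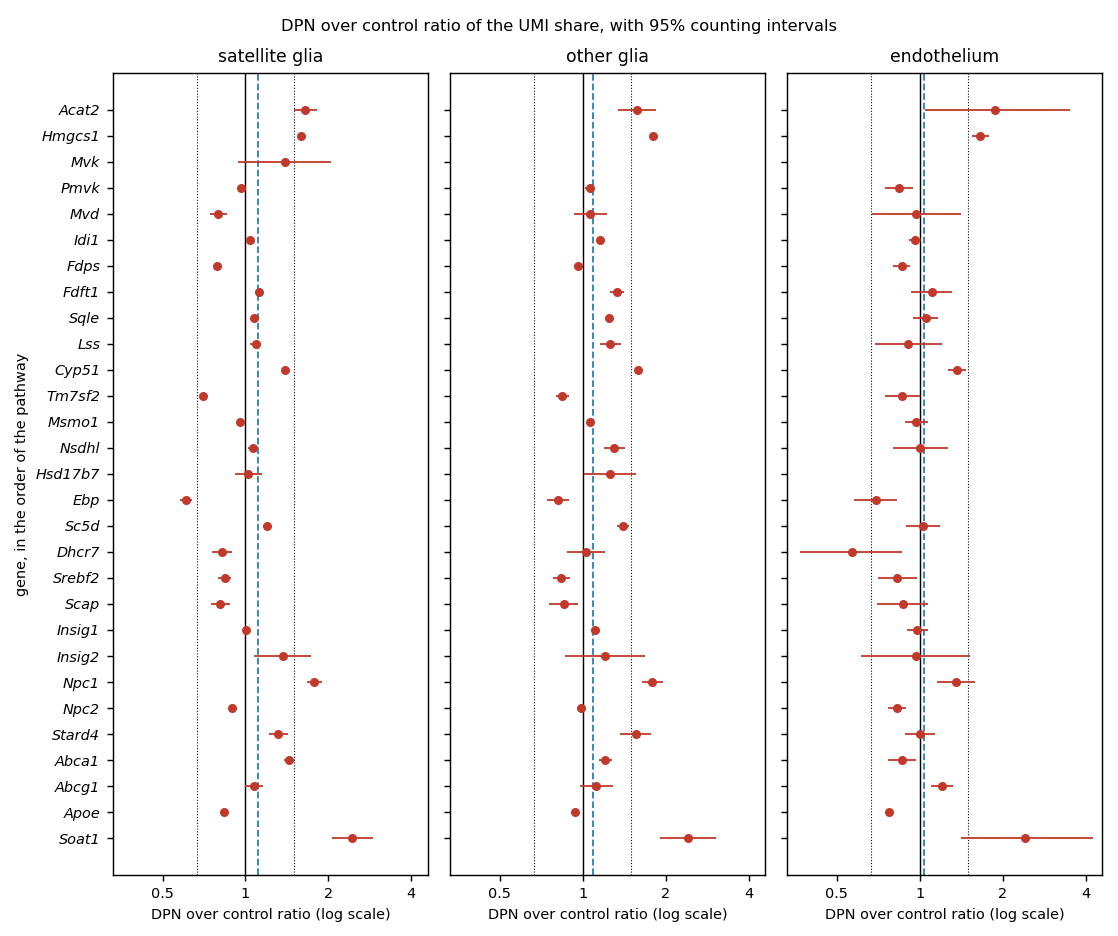
DPN over control ratio of the UMI share (horizontal, log scale) for each gene with at least 50 UMIs in satellite glia, other glia and endothelium, with exact 95% counting intervals. The solid line marks 1, the dotted lines 1.5-fold either way and the dashed line the median of all genes with 200 UMIs. Hmgcs1, Acat2 and Soat1 lie past 1.5 in all 3 classes, and Ebp lies past it on the low side in satellite glia.

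The mevalonate steps were led by a higher Hmgcs1 and Acat2 and a lower Fdps. Hmgcs1 makes HMG-CoA and is a well-known SREBP2 target. Its level was 1155 and 1844 CPM in satellite glia of the control and DPN library, a ratio of 1.60 (95% interval 1.58 to 1.61), or 1.44 relative to the median of all genes. In other glia it was 567 and 1017 CPM, a ratio of 1.79 (95% interval 1.76 to 1.83), and in endothelium 109.7 and 182 CPM, a ratio of 1.66 (95% interval 1.54 to 1.78). The ratio was 1.24 (95% interval 1.14 to 1.35) in myelinating Schwann cells and 1.14 (95% interval 0.952 to 1.37) in macrophages, where the interval spanned 1. In satellite glia the ratio was 1.39 when cells were limited to 10% mitochondrial UMIs, which left 216 and 127 of these cells, and in other glia it was then 1.485.

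Acat2, the cytosolic thiolase that joins acetyl-CoA units at the entry to the pathway, stood at 16.0 and 26.4 CPM in satellite glia, a ratio of 1.65 (95% interval 1.504 to 1.81). In other glia it stood at 11.2 and 17.7 CPM, a ratio of 1.57 (95% interval 1.35 to 1.85), and in endothelium at 1.64 and 3.07 CPM, a ratio of 1.88 (95% interval 1.05 to 3.52) on only 17 and 42 UMIs. Scaled to the median of all genes, the satellite glial and other glial ratios were 1.49 and 1.45, and with the 10% mitochondrial limit the ratio in other glia was 0.781, on 461 and 815 cells.

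The later mevalonate steps gave lower ratios. Idi1, the isomerase with the most UMIs of the mevalonate steps, stood at 1971 and 2046 CPM in satellite glia, a ratio of 1.04 (95% interval 1.03 to 1.05) that was 0.936 when scaled to the median of all genes. Fdps, which makes farnesyl diphosphate, stood at 1039 and 817 CPM, a ratio of 0.787 (95% interval 0.776 to 0.798). It was at 0.959 in other glia, 0.859 in endothelium, 0.644 in myelinating Schwann cells and 0.597 in macrophages, below 1 in all 5 classes. The kinases and decarboxylase between Hmgcs1 and Idi1 gave 1.39 (Mvk, on 62 and 50 UMIs), 0.966 (Pmvk) and 0.797 (Mvd) in satellite glia, with an interval for Mvk that spanned 1.

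Of the 11 genes of the squalene and sterol steps, the highest ratios in satellite glia and other glia were those of Cyp51 and the lowest those of Ebp, Tm7sf2 and, in satellite glia, Dhcr7. Cyp51, a demethylase of lanosterol with the most UMIs of these steps, stood at 1368 and 1911 CPM in satellite glia, a ratio of 1.40 (95% interval 1.38 to 1.41). In other glia it stood at 544 and 866 CPM, a ratio of 1.59 (95% interval 1.56 to 1.63), which was 1.46 when scaled to the median of all genes and 1.05 with the 10% mitochondrial limit. Its ratio in endothelium was 1.36.

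Ebp, the sterol isomerase, stood at 99.9 and 61.0 CPM in satellite glia, a ratio of 0.610 (95% interval 0.580 to 0.642) that stayed past 1.5-fold in the 8 alternatives run in every class. It was also below 1 in other glia (0.816) and endothelium (0.693), and in macrophages the ratio was 1.13 (95% interval 0.666 to 1.95), an interval that spanned 1. Tm7sf2, a sterol reductase, stood at 374 and 262 CPM in satellite glia, a ratio of 0.700 (95% interval 0.683 to 0.717), and at 0.843 in other glia and 0.864 in endothelium. Dhcr7, the reductase of a last step, had a ratio of 0.823 in satellite glia, 1.03 in other glia (0.943 when scaled to the median of all genes) and 0.567 (95% interval 0.369 to 0.865) in endothelium, the last on 55 and 41 UMIs. The endothelial value was 0.698 without cells that met a second gate.

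The other genes of these steps kept closer to 1 in satellite glia. Squalene synthase Fdft1 had a ratio of 1.12, squalene epoxidase Sqle 1.07, lanosterol synthase Lss 1.09, Msmo1 0.956, Nsdhl 1.07, Hsd17b7 1.03 and the desaturase Sc5d 1.19. Of these, Sc5d and Fdft1 stayed above 1 when scaled to the median of all genes, and the others were below it. In other glia the same genes ran from 1.06 (Msmo1, at 0.979 when so scaled) to 1.40 (Sc5d).

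Summed over the 18 synthesis genes, satellite glia had 8656 and 9666 CPM in the control and DPN library, a ratio of 1.12 (95% interval 1.11 to 1.12) that became 1.01 when scaled to the median of all genes. Other glia had 4546 and 5731 CPM, a ratio of 1.26 (95% interval 1.25 to 1.27), or 1.16 when so scaled. Endothelium had 936 and 995 CPM, a ratio of 1.06 (95% interval 1.04 to 1.09). Myelinating Schwann cells had 2915 and 2635 CPM, a ratio of 0.904 (95% interval 0.873 to 0.936), and macrophages 1683 and 1558 CPM, a ratio of 0.926 (95% interval 0.866 to 0.989). Within other glia, the cells with UMIs of Igfbp3, Nes or Fgf2 above a set share (691 and 913 cells) gave a ratio of 1.30 and the rest (2165 and 2961 cells) 1.25. The sums combine genes that lay on both sides of 1.

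Over all kept cells together, the synthesis sum was lower in DPN, at 5931 and 5569 CPM, a ratio of 0.939 (95% interval 0.936 to 0.942), although it was higher in satellite glia and other glia. Satellite glia made up 42.2% of kept control cells and 27.3% of kept DPN cells. Other glia made up 29.1% and 35.2%. The satellite glial gate is a fixed threshold on Fabp7 and Tyrp1, whose median sum in gated cells was 26.7 and 22.9 per 10000 UMIs. Cells below it with S100b and without the myelin gate counted as other glia. Whether the gate moved cells between these classes was not tested, nor was its part in their ratios. In a bulk measurement, a smaller share of satellite glia and less message per cell could not have been told apart.

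None of the 4 regulators was past 1.5-fold in a class where it had 50 UMIs, except Insig1 in macrophages without cells of a second gate (1.61 (95% interval 1.11 to 2.37)). Insig1, the sterol-responsive anchor with the most UMIs of the regulators, stood at 518 and 521 CPM in satellite glia, a ratio of 1.01 (95% interval 0.988 to 1.03) that was 0.908 when scaled to the median of all genes, and at 1.11 in other glia and 0.980 in endothelium. Srebf2, the gene of SREBP2, stood at 73.8 and 62.0 CPM in satellite glia, a ratio of 0.841 (95% interval 0.797 to 0.886), with 0.837 in other glia and 0.830 in endothelium. Scap had ratios of 0.810, 0.855 and 0.867 in the same classes. Insig2 had a ratio of 1.36 (95% interval 1.07 to 1.73) in satellite glia on 163 and 129 UMIs.

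Among the genes of lysosomal export and transfer, Npc1, the membrane protein that passes cholesterol out of the lysosome, was higher in DPN in all 5 classes. It stood at 33.8 and 60.0 CPM in satellite glia, a ratio of 1.78 (95% interval 1.67 to 1.89), and at 31.2 and 55.9 CPM in other glia, a ratio of 1.79 (95% interval 1.64 to 1.97). The ratio was 1.97 (95% interval 1.45 to 2.68) in macrophages, 1.55 (95% interval 1.25 to 1.93) in myelinating Schwann cells and 1.35 (95% interval 1.15 to 1.59) in endothelium. With the 10% mitochondrial limit it was 1.36 in satellite glia and 0.836 in myelinating Schwann cells, the latter on 78 and 92 cells, and averaged over cells it was 1.33 in myelinating Schwann cells.

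Npc2, with the most UMIs of this group, was lower in DPN in satellite glia, endothelium and myelinating Schwann cells, and did not differ beyond counting error in other glia and macrophages. It stood at 839.7 and 753 CPM in satellite glia, a ratio of 0.897 (95% interval 0.883 to 0.911), and its ratio in macrophages was 0.940 (95% interval 0.871 to 1.02). It was 0.984 in other glia, with an interval up to 1.01, 0.826 in endothelium and 0.692 in myelinating Schwann cells. Stard4 had a ratio of 1.32 (95% interval 1.22 to 1.42) in satellite glia, 1.56 (95% interval 1.37 to 1.78) in other glia and, in endothelium, where its level was highest, did not differ between the libraries beyond counting error (95% interval 0.880 to 1.14).

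Of the genes of efflux and storage, Soat1 had the highest ratio in satellite glia, other glia and endothelium among the genes with 50 UMIs there. Soat1 esterifies cholesterol for storage in droplets. Its level was low, at 3.96 and 9.66 CPM in satellite glia (230 and 326 UMIs), a ratio of 2.44 (95% interval 2.06 to 2.90). It was 4.57 and 10.98 CPM in other glia (103 and 271 UMIs), a ratio of 2.40 (95% interval 1.91 to 3.05), and 1.83 and 4.39 CPM in endothelium (19 and 60 UMIs), a ratio of 2.40 (95% interval 1.41 to 4.26). The ratios in these 3 classes stayed past 1.5-fold in the 8 alternatives run in every class.

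Abca1, the exporter that loads Apoe particles, had a ratio of 1.44 (95% interval 1.38 to 1.49) in satellite glia, at 88.4 and 127 CPM, and 1.21 (95% interval 1.14 to 1.27) in other glia. In endothelium it was 0.860 (95% interval 0.766 to 0.966), at 53.3 and 45.9 CPM. Abcg1, which also exports cholesterol, had ratios of 1.08 (below 1 when scaled to the median of all genes, at 0.969), 1.12 and 1.20 in the same classes.

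Apoe, the apolipoprotein that glia secrete, stood at 83271 and 69666 CPM in satellite glia, with 4841267 and 2350803 UMIs. Its ratio there was 0.837 (95% interval 0.835 to 0.838). It was 0.937 in other glia, 0.775 in endothelium, 0.594 in myelinating Schwann cells and 0.575 in macrophages. The counting intervals of Apoe are narrow because of its many UMIs, and they do not cover differences between pools of rats.

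Values in macrophages and myelinating Schwann cells differed with and without the cells that also met another gate. Of the gated macrophages, 19 of control and 35 of DPN also met another gate, and of the myelinating Schwann cells 17 and 25. Fabp7 and Tyrp1 summed to 461 and 259 CPM in macrophages and to 407 and 181 CPM in myelinating Schwann cells (control and DPN). Without the cells of a second gate they summed to 61.1 and 94.7 CPM in macrophages and to 136 and 116 CPM in myelinating Schwann cells.

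In macrophages the values of the pathway turned with this choice. Without cells of a second gate, the synthesis sum was 535 CPM (control) and 942 CPM (DPN), a ratio of 1.76 (95% interval 1.57 to 1.98), in place of 0.926. Hmgcs1 stood at 56.0 and 118 CPM, a ratio of 2.10 (95% interval 1.46 to 3.05), and Cyp51 at 45.9 and 118 CPM, a ratio of 2.56 (95% interval 1.74 to 3.85). Idi1 had a ratio of 2.19, Sqle 1.82, Insig1 1.61 and Npc1 1.87, so that 6 of the 13 genes with 50 UMIs were at least 1.5-fold higher and 0 lower, beside 22.6% and 5.15% of all genes. Fdps (0.937), Tm7sf2 (0.997) and Apoe (0.854) were no longer past 1.5-fold. These values rest on 154 and 207 cells, with 108 UMIs of Hmgcs1 in the DPN library. Fabp7 and Tyrp1 were also higher in the DPN library in these macrophages, and their part in the ratios was not tested.

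In myelinating Schwann cells without a second gate, the synthesis ratio was 0.994, Fdps was 0.703 and Apoe 0.745, both inside 1.5-fold. Of 23 genes, 1 was past it on the high side and 1 on the low side, beside 21.8% and 6.06% of all genes. Tm7sf2 was lower at 0.608 (95% interval 0.465 to 0.791), at 72.0 and 43.8 CPM, and Npc1 higher at 1.52 (95% interval 1.21 to 1.91). Averaged over cells Tm7sf2 was 0.726, and with the 10% mitochondrial limit it was 1.07. Blood markers in this class summed to 6.34 and 512 CPM, and their part in these ratios was not tested. In endothelium, where 82 and 150 cells met another gate, Hmgcs1 was 1.77, Soat1 2.15 and Apoe 0.760 without them, and 2 of 26 genes were past 1.5-fold on the high side and 0 on the low side, beside 20.6% and 5.59% of all genes. Fibroblast markers in endothelium summed to 26.8 and 103 CPM, and their part was not tested either. Cells of a second gate changed the satellite glial synthesis ratio by less than its interval.

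**Figure D3:**
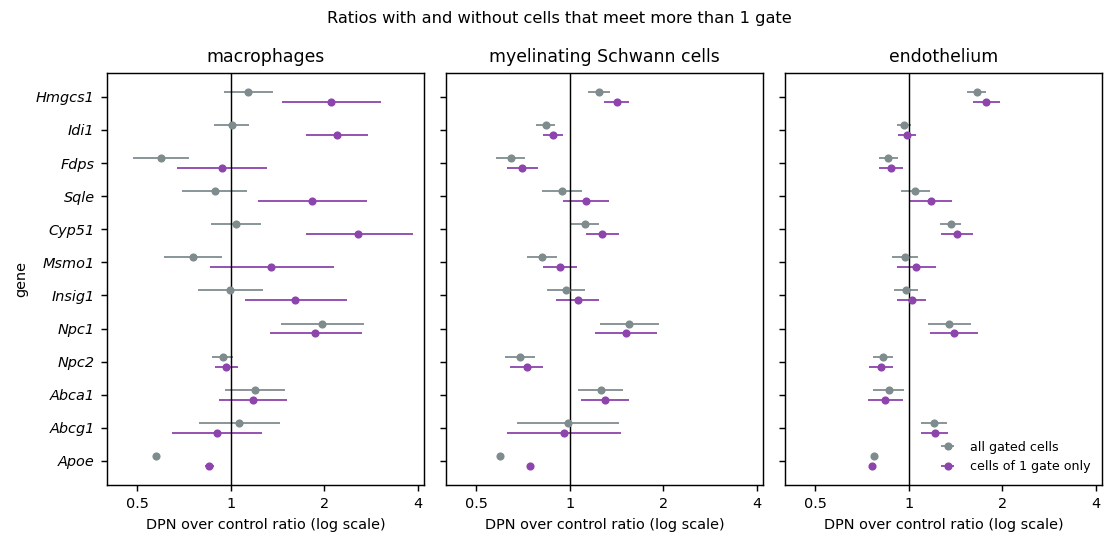
DPN over control ratio (horizontal, log scale) of 12 genes in macrophages, myelinating Schwann cells and endothelium, over all gated cells and over cells that met 1 gate only, with exact 95% counting intervals. In macrophages Hmgcs1 moved from 1.14 to 2.10 and Cyp51 from 1.04 to 2.56, while Npc1 moved from 1.97 to 1.87, and the endothelial values moved little.

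The unscaled difference in satellite glia and other glia was seen across the range of cells. Each cell was thinned to 2000 UMIs and shallower cells were left out, 38 and 46 of the satellite glia and 149 and 307 of the other glia. The median number of synthesis UMIs per cell was then 17 in control and 19 in DPN satellite glia, with quartiles of 12 and 21 against 14 and 24. In other glia the median was 6 against 9, with quartiles of 4 and 11 against 5 and 14. The medians were 4 and 4 in myelinating Schwann cells, 1 and 1 in endothelium and 1 and 2 in macrophages. Thinning does not remove the shift of all genes, whose median ratio was 1.11 in satellite glia and 1.09 in other glia. Above that median lay 6 of 18 synthesis genes in satellite glia and 10 of 17 in other glia. The summed ratio in satellite glia was 1.01 when scaled to it.

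**Figure D4:**
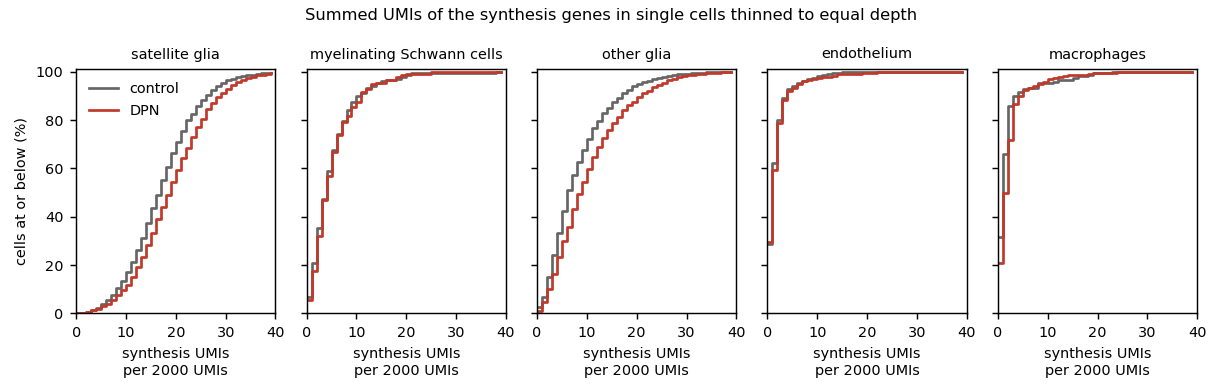
Share of cells (vertical, %) with at most a given number of synthesis UMIs (horizontal) after each cell was thinned to 2000 UMIs, for each class in the control and DPN library. The DPN curve lies to the right of the control in satellite glia (median 19 against 17) and in other glia (median 9 against 6), and the curves nearly coincide in myelinating Schwann cells and endothelium. The counts are not scaled to the median of all genes.

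Shares of cells with a UMI followed the levels. At equal depth, Hmgcs1 was counted in 83.7% and 93.3% of satellite glia of the control and DPN library (98.9% and 98.7% before thinning), in 52.3% and 73.2% of other glia (79.2% and 85.2%) and in 13.1% and 22.6% of endothelium (46.6% and 56.3%). Fabp7, a gene that endothelium should lack, was counted in 7.44% and 7.66% of endothelial cells at the same depth (26.4% and 19.0% before thinning). Tm7sf2 was counted in 49.1% and 36.4% of satellite glia (92.7% and 83.9% before thinning) and Ebp in 15.9% and 11.7% (68.3% and 46.2%). In endothelium Tm7sf2 was counted in 6.61% and 4.91% of cells and Ebp in 5.23% and 4.25%, shares below that of Fabp7, which is far more abundant in satellite glia. Set against the level in satellite glia, all gated endothelium held 4.35% and 3.83% of Fabp7 (control and DPN). The shares were 9.23% and 11.4% for Tm7sf2, 10.2% and 11.6% for Acat2, 25.04% and 28.4% for Ebp, and 46.2% and 45.4% for Soat1. Of the endothelial cells, 82 and 150 also met another gate. Satellite glia were gated on Fabp7, which lowers its share in advance. The comparison therefore cannot show whether endothelium itself expressed these 4 genes. Apoe was counted in at least 98.2% of the thinned cells of each class and library, and its share of cells therefore does not tell classes apart.

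The ratios were also ordered by the span of the gene, from start to end in RefSeq assembly GRCr8, a comparison added after the data had been seen. Spans were found for 90.6% to 94.0% of the genes with 50 UMIs in a class. Over all these genes in satellite glia, the median log2 ratio was -0.09 in the first of 4 equal bins, with the shortest spans (up to 10.4 kb), 0.09 in the next, 0.33 in the third (24.99 to 60.4 kb) and 0.56 in the bin with the longest. The share of genes at least 1.5-fold higher was 12.8%, 17.5%, 31.5% and 47.3% in the same order. Spearman's correlation between ratio and span over genes ran from 0.41 in satellite glia to 0.48 in myelinating Schwann cells, as a description over genes that share their libraries.

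The 29 genes were part of this order. Spearman's correlation over them was 0.49 in satellite glia and 0.34 over the 28 genes in other glia. Apoe (3.93 kb), Tm7sf2 (4.36 kb), Ebp (6.41 kb) and Fdps (9.62 kb) are short genes, and their ratios were below 1 in satellite glia. Those of Pmvk and Mvd, in the same shortest bin, were also below 1. Idi1 (7.76 kb, ratio 1.04) and Insig1 (8.47 kb, ratio 1.01) are short too, but their ratios were not below 1. Soat1 (42.6 kb), Npc1 (45.6 kb) and Abca1 (123 kb) are long, and their ratios were above 1. In the shortest bin, the median log2 ratio of the 8 members in satellite glia was -0.29, against -0.09 for all genes. In the second bin it was 0.26 over 11 members, among them Hmgcs1 (20.4 kb) and Acat2 (18.0 kb), against 0.09, and in the third bin 0.12 over 9 members, against 0.33. Srebf2 (58.2 kb) and Scap (54.7 kb) were long genes with ratios below 1. The part of gene span in the ratios was not tested.

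**Figure D5:**
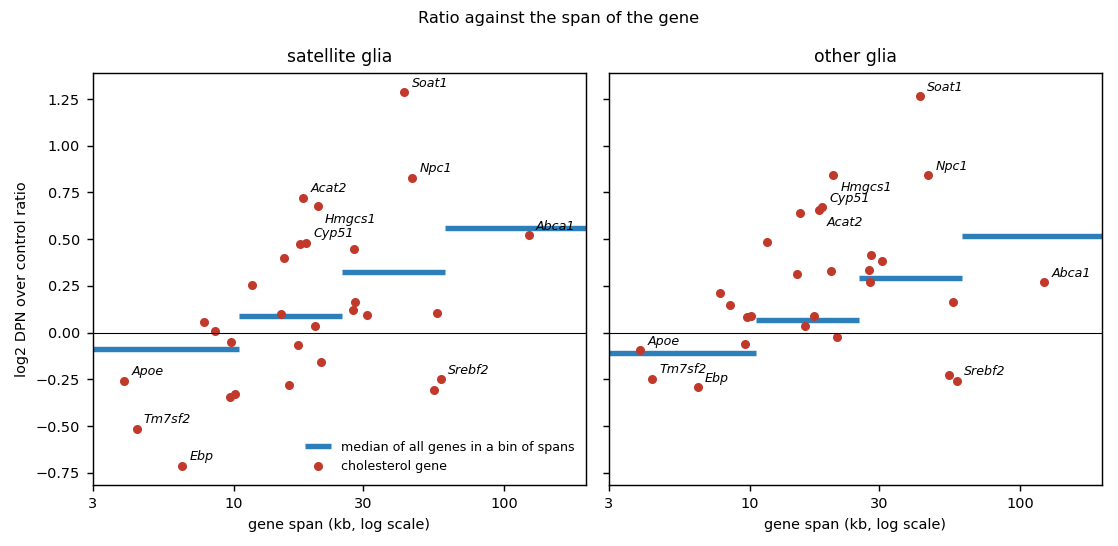
Log2 DPN over control ratio of each gene (points) against its span in kb (horizontal, log scale) in satellite glia and other glia, with the median of all genes in each bin of spans as bars. The bars run from -0.09 to 0.56 in satellite glia and from -0.11 to 0.52 in other glia. Hmgcs1, Acat2, Cyp51, Soat1 and Npc1 lie above the bar of their bin in both classes, and Ebp, Tm7sf2 and Srebf2 below it.

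Other genes of sterol handling, listed by name and not by how they moved, gave a similar spread. Of 46 listed, 42 had 50 UMIs in satellite glia, and 11 were at least 1.5-fold higher and 1 lower, near the 27.9% and 2.65% of all genes, with a median log2 ratio of 0.15, against 0.21 for all genes with 50 UMIs. Mbtps1, the protease that releases SREBPs, stood at 2.30 and 6.05 CPM, a ratio of 2.62 (95% interval 2.10 to 3.29), with 2.64 in other glia and 2.23 in endothelium. Vldlr, a lipoprotein receptor, had a ratio of 1.70 (95% interval 1.57 to 1.83) in satellite glia, the lysosomal lipase Lipa 1.68 (95% interval 1.45 to 1.96) and the sterol-binding Osbp 1.76 (95% interval 1.61 to 1.92). Erlin2, of the machinery that removes sterol-regulated proteins, had 1.87 (95% interval 1.64 to 2.14). Srebf1, the gene of SREBP1, was at 0.838.

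Apod, which encodes apolipoprotein D, was the 1 lower gene of that list in satellite glia, at 102 and 50.9 CPM, a ratio of 0.497 (95% interval 0.471 to 0.524). In endothelium it was higher, at 34.2 and 204 CPM, a ratio of 5.97 (95% interval 5.35 to 6.69), where the fibroblast markers given above were higher too. In the other classes, the list gave 7 higher and 2 lower of 43 in other glia (all genes 25.4% and 2.68%), 6 and 2 of 42 in endothelium (20.5% and 5.3%), 4 and 2 of 32 in myelinating Schwann cells (21.9% and 6.05%), and 5 and 0 of 23 in macrophages (23.5% and 5.42%).

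Fatty acid genes that SREBPs are known to drive numbered 12, of which 4 were at least 1.5-fold higher and 0 lower in satellite glia, beside 27.9% and 2.65% of all genes. Gpam, which starts glycerolipid synthesis, stood at 35.4 and 74.1 CPM, a ratio of 2.09 (95% interval 1.98 to 2.22). Lpin1 was at 1.99, the acetyl-CoA carboxylase Acaca at 1.90 and the desaturase Fads2 at 1.56, while Fasn, fatty acid synthase, was at 0.879 and Scd2, with the most UMIs of the list, at 1.05, below the median of all genes. Counts were 3 higher and 0 lower of 12 in other glia (all genes 25.4% and 2.68%), 3 and 0 of 11 in endothelium (20.5% and 5.3%), 2 and 0 of 10 in myelinating Schwann cells (21.9% and 6.05%) and 1 and 3 of 5 in macrophages (23.5% and 5.42%).

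Liver X receptors switch on cholesterol export when sterols are plentiful. Of 8 of their known targets, among them Abca1, Abcg1 and Apoe, 0 were past 1.5-fold in satellite glia, beside 27.9% of all genes higher and 2.65% lower. In other glia 0 were higher and 1 of 8 was lower, Lpcat3 at 0.571 (95% interval 0.506 to 0.644) (all genes 25.4% and 2.68%). In endothelium 0 were higher and 2 of 8 lower (all genes 20.5% and 5.3%), Nr1h3 at 0.628 (95% interval 0.507 to 0.777) and Pltp at 174 and 92.4 CPM, a ratio of 0.530 (95% interval 0.493 to 0.570). With 0 higher, Apoe was the 1 lower gene of 7 in macrophages (all genes 23.5% and 5.42%) and in myelinating Schwann cells (21.9% and 6.05%), where it was inside 1.5-fold without cells of a second gate.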

How the data were processed

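Gene by cell matrices of 1 control and 1 DPN library were used. Per the labels and the methods of the study, the authors made these UMI counts with Cell Ranger 3.1.0, which aligns with STAR. The STAR version and the genome build are not given in the sources used here. The deposited counts were not normalized, and no columns of the authors' own comparisons were used.

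Counts of 147 symbols carried by more than 1 of the 32623 gene identifiers were summed. Cells with 1000 UMIs or more and under 20% mitochondrial UMIs were kept. Cells were gated by summed UMIs per 10000: Fabp7 and Tyrp1 at 12 or more for satellite glia, Prx, Mag and Cldn19 at 5 or more for myelinating Schwann cells, S100b at 5 or more with neither of these for other glia, Cldn5, Flt1 and Cdh5 at 10 or more for endothelium, and C1qa, C1qb and C1qc at 10 or more for macrophages. Cells that met more than 1 gate (113 and 188) counted in each class, and no doublet caller was run. Leaving them out was an alternative. The gates left 1598 and 2383 kept cells without a class.

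UMIs were summed over the cells of a class and divided by all UMIs of those cells (CPM). Levels have exact Poisson and ratios exact conditional binomial 95% intervals. A gene was called past 1.5-fold at a ratio of at least 1.5 or at most 0.667, given 50 UMIs in the class over both libraries. With 1 library per condition there was no residual spread and no p-value. Members past 1.5-fold in any class, and the member with the most UMIs in each role, were named with values, and other members were summarised or named beside them. The 29 genes, the gene lists and the gates were chosen with earlier results of these data known. Alternatives changed the scaling, the mitochondrial limit, the gates, the depth of cells, the weighting of cells and the UMI minimum. The ratio, its interval and the 1.5-fold call were tested on simulated Poisson counts for satellite glia. The gates, the thinning, the scaling and differences between pools were not simulated. Python 3.11.15, numpy 2.4.6, scipy 1.17.1, pandas 2.3.3 and matplotlib 3.10.9 were used.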

Additional observations from a re-analysis of the deposited data

Results flagged for a closer look

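Pairs of classes were compared for genes whose DPN over control ratio lay on opposite sides of 1, with 1 library per condition in each class. Abca1, the cholesterol exporter, had a ratio of 1.44 in satellite glia and 0.860 in endothelium. Pmvk, a kinase of the mevalonate steps, had a ratio of 1.06 in other glia and 0.696 in myelinating Schwann cells, and the first of these was 0.975 when scaled to the median of all genes. Neither difference between classes was tested.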

How the results depend on the processing

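No paired analysis was possible because control and DPN ganglia were pooled into a single library each. Of 23 ratios past 1.5-fold, 8 stayed past it in the same direction in the 8 alternatives run in every class. Ratios not past it were counted only for genes past it in some class or with the most UMIs of a role. Of these 40 ratios, 26 stayed inside, and ratios of the other members were not in this count. The summed synthesis ratio (1.12 in satellite glia, 0.904 in myelinating Schwann cells, 1.26 in other glia, 1.06 in endothelium, 0.926 in macrophages) was as follows elsewhere. Scaled to the median of all genes it was 1.01 in satellite glia, 1.16 in other glia and 1.03 in endothelium, and with mitochondrial UMIs left out of the totals 1.13 in satellite glia. With the 10% mitochondrial limit it was 1.05, 1.18, 1.04, 0.982 and 1.06 in the order above. Without cells of a second gate it was 0.994 in myelinating Schwann cells and 1.76 in macrophages. With gate thresholds doubled it was 1.13, 0.941, 1.30 and 1.10 in the first 4 classes. In cells of 3000 to 15000 UMIs it was 1.13, 1.08, 1.30, 1.17 and 1.72, and averaged over cells 1.11, 1.03, 1.24, 1.13 and 1.30. In other glia with Igfbp3, Nes and Fgf2 it was 1.30.

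Counts of members past 1.5-fold were 3 in place of 6 in other glia when scaled to the median. In myelinating Schwann cells they were 2 in place of 4 with the 10% limit, without cells of a second gate, with doubled thresholds and averaged over cells, and 7 without a UMI minimum. They were 2 in place of 4 in endothelium without cells of a second gate. In macrophages they were 7 in place of 4 in cells of 3000 to 15000 UMIs and 7 without a UMI minimum. With the 10% limit, called ratios crossed 1 for Tm7sf2 (1.07) and Npc1 (0.836) in myelinating Schwann cells and for Acat2 (0.781) in other glia. The limit left fewer cells, and the cause of these and the other differences was not tested. Low counts limit Mvk, Soat1 and Dhcr7, and differences between rats could not be measured at any depth.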
